A study of Mus musculus with 4 samples.

Results

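Cells sorted from mouse liver as Prom1+CD49f+CD45- were compared with the presorted CD45- cells they were taken from. Members of the comparison were genes, chosen by count: of 41128 gene identifiers in the count table, 20464 had at least 10 counts in either of these libraries. Of these, 1572 lay no higher than the level of olfactory receptor genes, used here as a background level, and were set aside, which left 18892 genes. The olfactory level was the 95th percentile of 1160 olfactory receptor genes in each library, 0.700 CPM (counts scaled to library size) in the sorted library and 0.0225 CPM in the input, and a gene was kept when it exceeded this level in at least 1 of both libraries.

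All mice were of the C57BL/6 strain and carried the label alcoholic hepatitis: a high cholesterol fat diet eaten freely supplied 40% of their calories, an alcohol-containing liquid diet given into the stomach supplied the remaining 60%, and a binge was added each week. Livers were digested with collagenase, hepatocytes were spun out at low speed, and CD45+ cells, the leukocytes, were depleted with magnetic beads. The remaining CD45- cells were the input, and flow cytometry with antibodies to Prom1 (prominin 1, also called CD133) and CD49f (integrin alpha 6) gave the Prom1+CD49f+CD45- cells, as well as a Prom1-CD49f+CD45- fraction and one labelled Prom1+CD49f+CD45+ (called here the library labelled CD45+). Each population gave 1 library, made from the pooled RNA of 2 mice, with no animal on another diet among them. No difference therefore had a replicate check: each ratio carries a 95% interval for counting error only, and a gene is called higher or lower when that whole interval lies beyond 2-fold.

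Prominin 1 is a membrane protein of apical protrusions and cilia, and in liver it marks bile duct cells (cholangiocytes) and cells of the ductular reaction, the proliferation of duct-like cells seen in chronic injury. Cholangiocytes line the bile ducts, carry a primary cilium, secrete fluid and bicarbonate into bile, and are held together by tight junctions and desmosomes. They rest on a basement membrane and depend on the transcription factors Sox9 and Onecut1. The CD45- fraction of a digested liver also holds sinusoidal endothelial cells, stellate cells, fibroblasts, mesothelial cells, remaining hepatocytes and leukocytes that escaped the beads.

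In the sorted library 30239681 reads were assigned to genes, and in the input 52294143. Of the 18892 genes compared, 4264 were higher in the sorted cells (22.6%) and 3378 were lower (17.9%), and the median log2 ratio over all of them was -0.01. Every share of a gene list below is to be read against these percentages and against those of genes at a like level. Between 10 and 100 CPM, by the higher of both levels, 13.1% of genes were higher and 16.2% lower. Between 100 and 1000 CPM the shares were 12.4% and 31.6%. Ratios rest on a scaling that assumes most genes to be alike (TMM); scaling to the library totals instead moved all log2 ratios up by 0.42 and the higher calls from 55.8% to 67.2% of all calls. Under that scaling the lower calls described for Car9, Slc40a1, Tjp1, Wwtr1, Axin2, Afp, mt-Co1 and Rps6 are lost, while Ctnnb1, Pkd2, Ift88, Kif3a and H2-Aa, given below as not called, become higher. The libraries differed in low-level signal: 67.3% of the 1160 olfactory receptor genes had a count in the sorted library and 67.8% in the library labelled CD45+, against 9.66% in the input and 24.1% in the Prom1-CD49f+CD45- library. In bulk RNA, fewer cells of a type and less of its RNA per cell cannot be told apart.

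The gate was checked first. Prom1, on chromosome 5 at 43993600 to 44102000 (mm10), stood at 355 CPM in the sorted library and 67.1 CPM in the input, 5.29-fold higher (5.08 to 5.51). Its level was 31.1 CPM in the Prom1-CD49f+CD45- library and 11.4 CPM in the library labelled CD45+. Itga6, which encodes CD49f, did not follow the sort, with 72.9 CPM in the sorted library and 110.4 CPM in the input, a ratio of 0.66 (0.629 to 0.693). Ptprc, which encodes CD45, was at 6.33 CPM in the sorted library and 21 CPM in the input, 3.31-fold lower (2.85 to 3.86). In the library labelled CD45+ Ptprc was at 14.5 CPM, above both CD45- sorted libraries but below the input, and its Prom1 level was the lowest of the 4, which goes against its label. Prom1 RNA was thus highest of the 4 libraries in the sorted cells, whereas Itga6 RNA was not higher there than in the input.

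**Figure D1:**
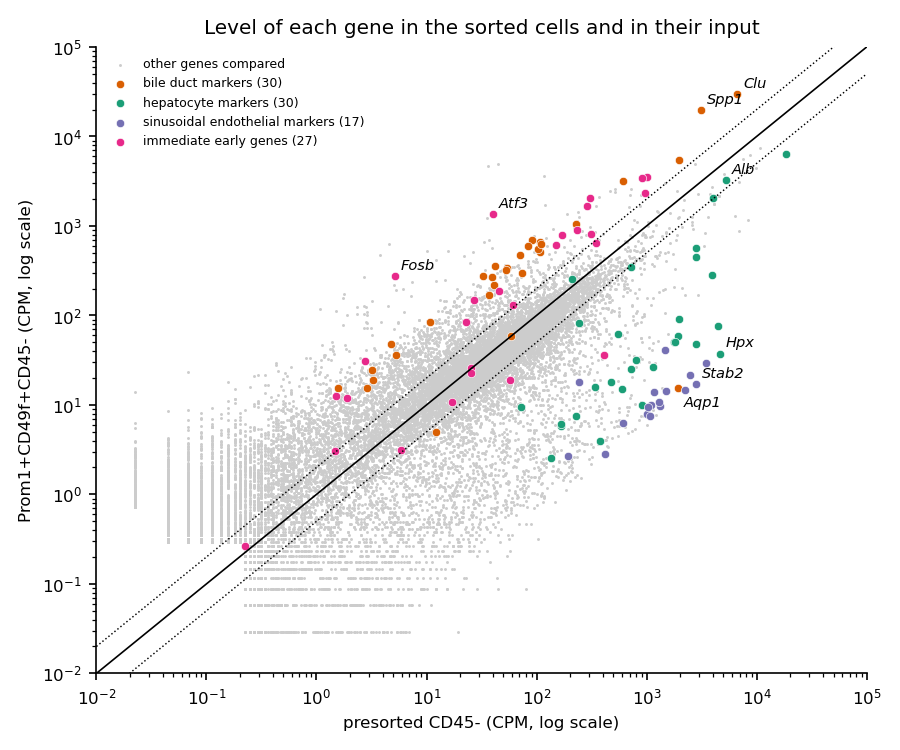
Level of each compared gene in the presorted CD45- library (x axis, CPM, log scale) and in the Prom1+CD49f+CD45- library (y axis, CPM, log scale), 1 library each, without genes at 0 in a library; the solid line marks equal levels and the dotted lines 2-fold. Bile duct markers lie in a band above the line (27 of 30 called higher), sinusoidal endothelial markers lie far below it (17 of 17 called lower), and hepatocyte markers spread from the line downwards.

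Bile duct genes were higher in the sorted cells almost throughout. Of 30 cholangiocyte markers 27 were higher and 2 lower, with a median log2 ratio of 2.58, and their summed level was 65947 CPM in the sorted library, 15628 in the input, 24564 in the Prom1-CD49f+CD45- library and 3714 in the library labelled CD45+. Clu, which encodes the secreted chaperone clusterin, took the most counts of any gene in the sorted library, with 29905 CPM in the sorted library and 6632 CPM in the input, 4.51-fold higher (4.49 to 4.53). Spp1 (osteopontin), a secreted matrix protein of ducts, came second with 19684 CPM in the sorted library and 3103 CPM in the input, 6.34-fold higher (6.31 to 6.38). Both are genes of the duct list. The 4 genes that came next, Trf among them, were not higher than in the input.

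The definitive markers moved by similar factors. Sox9, the transcription factor that specifies ducts, was at 693 CPM in the sorted library and 91.6 CPM in the input, 7.57-fold higher (7.32 to 7.83). Epcam, an epithelial adhesion molecule of ducts, was at 670.2 CPM in the sorted library and 107 CPM in the input, 6.25-fold higher (6.06 to 6.45). Krt19, the keratin most used to stain bile ducts, was at 301 CPM in the sorted library and 74.1 CPM in the input, 4.07-fold higher (3.91 to 4.23). A regulator, an adhesion molecule and a cytoskeletal gene of ducts were therefore all higher, with ratios from 4.07 to 7.57. Sctr, the receptor for the hormone secretin that drives ductal bicarbonate secretion, was at 15.3 CPM in the sorted library and 1.55 CPM in the input, 9.85-fold higher (7.65 to 12.8). Cldn4, a tight junction claudin, had the largest ratio of the list, at 47.5 CPM in the sorted library and 4.73 CPM in the input, 10.05-fold higher (8.7 to 11.7).

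Ratios of the duct markers were narrow in range. The 27 called higher ran from 2.75-fold for Cp (ceruloplasmin, a copper oxidase also made by hepatocytes) to 10.0-fold, their median was 6.25-fold, and 24 of the 27 lay between 4 and 9. Aqp1 and Car9 went the other way: Aqp1, a water channel of ducts and of endothelium, was at 15.4 CPM in the sorted library and 1928 CPM in the input, 125-fold lower (115 to 136), and Car9, a carbonic anhydrase, at 4.99 CPM in the sorted library and 12.2 CPM in the input, 2.44-fold lower (2.05 to 2.92). Slc4a2, the chloride-bicarbonate exchanger of ducts, did not differ by the call, with 58.3 CPM in the sorted library and 58.2 CPM in the input, a ratio of 1.0 (0.945 to 1.06). Aqp1 was at 714 CPM in the Prom1-CD49f+CD45- library and 2487 CPM in the library labelled CD45+, a distribution over the 4 libraries like that of the endothelial genes described below.

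Some genes exceeded this range, and a count of them follows that was made after the values were seen. Among 9485 compared protein-coding genes of at least 10 CPM in the sorted library, 59 had an interval wholly above the highest upper bound of any duct marker (12.8-fold). Of the 59, 23 were predicted gene models, and 18 of these stood higher in the Prom1-CD49f+CD45- library than in the sorted cells, as did 1 of the other 36. The most abundant was Gm10800, at 4625 CPM in the sorted library, 36.3 CPM in the input and 14134 CPM in the Prom1-CD49f+CD45- library, and it and the non-coding model Gm26870 (4974 against 44.4 CPM) were among the 10 genes with most counts in the sorted library. In 35 of the 59 the library labelled CD45+ held as high a level or higher. Among these were Olfr613 (103 against 2.72 CPM), an olfactory receptor gene of the background class, and Vmn1r58 (105 against 2.32 CPM), a vomeronasal receptor gene. Of the 59, 9 stood in that library below 10% of their level in the sorted cells: Atf3, Ccn1, Ankrd1, Krt17, Adam33, Zfhx4, Kif12, Rgs11 and C2cd4b. Krt17, a keratin of wounded and basal epithelia, was at 35.8 CPM in the sorted library and 1.17 CPM in the input, 30.6-fold higher (23.2 to 41.2). Adam33, a membrane metalloproteinase, was at 84.9 CPM in the sorted library and 3.83 CPM in the input, 22.2-fold higher (19 to 26.1). Kif12, a kinesin known from polarised duct and kidney epithelium, was at 81.5 CPM in the sorted library and 5.54 CPM in the input, 14.7-fold higher (12.9 to 16.8). Zfhx4, a zinc finger homeobox factor, was at 60.3 CPM in the sorted library and 3.2 CPM in the input, 18.9-fold higher (15.9 to 22.5). Rgs11, a regulator of G protein signalling, was at 32.2 CPM in the sorted library and 1.35 CPM in the input, 23.8-fold higher (18.4 to 31.4). C2cd4b shares 47.2% of its exons with another gene model, so its reads may be split. Atf3, Ccn1 and Ankrd1 are taken up with the immediate early genes and YAP targets.

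**Figure D2:**
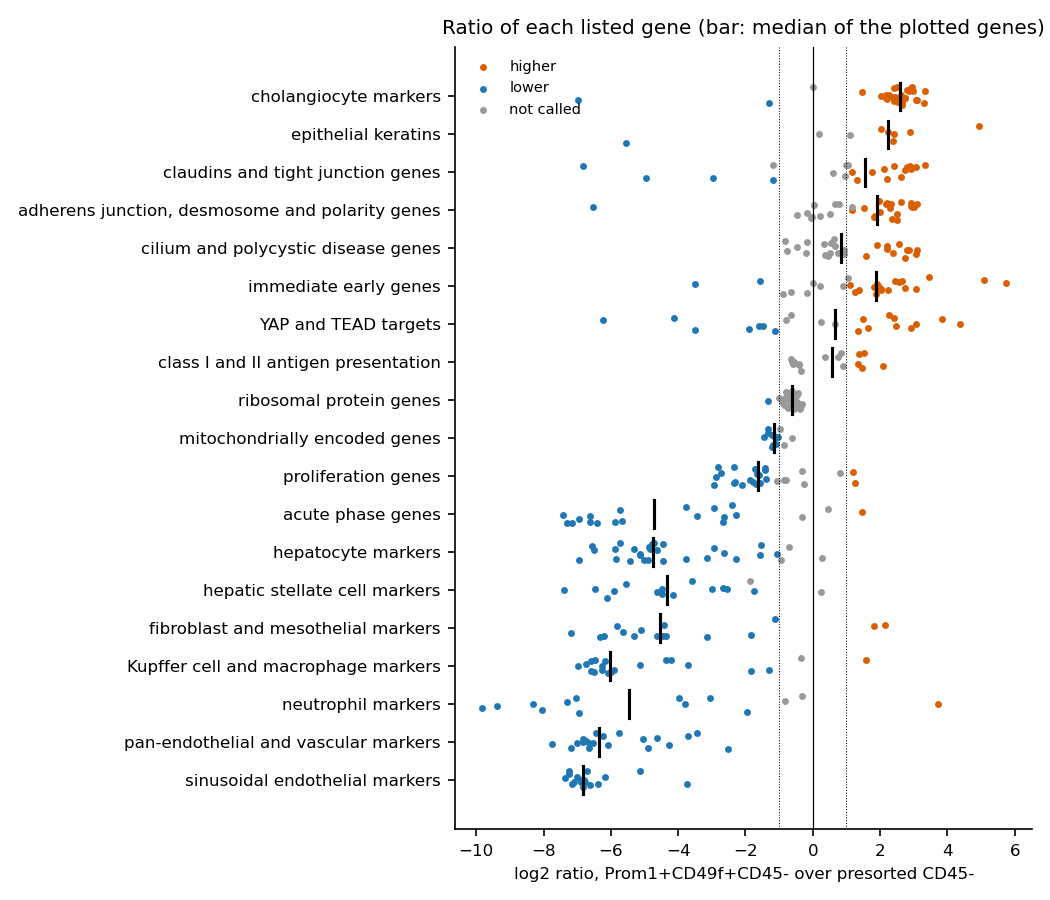
log2 ratio of the Prom1+CD49f+CD45- library over the presorted CD45- library (x axis) for each compared gene of 19 lists; points are genes coloured by call, black bars are list medians, dotted lines mark 2-fold, and genes at 0 counts are placed at their bound. Cholangiocyte markers centre on 2.58, hepatocyte markers spread down to -6.94, and sinusoidal endothelial markers centre on -6.84.

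The structural genes of an epithelium were higher as a group. Of 9 keratins 6 were higher and 1 lower. Krt8 and Krt18, the keratin pair of all simple epithelia, stood at 2433 against 466 CPM and 2412 against 515 CPM. Krt23, a keratin of ductal and gut epithelium, was 7.44-fold higher (7.02 to 7.9), from 218 against 29.3 CPM. Krt14, a keratin of stratified epithelium, was lower, at 1 count in the sorted library against 61 in the input. The higher keratins were thus those of simple epithelium, with Krt17 added.

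Tight junction genes were mixed. Of 22, 13 were higher and 4 lower. Besides Cldn4, the higher claudins included Cldn7 (323 against 52.3 CPM, 6.17-fold higher (5.9 to 6.46)), Cldn3 (407 against 93.6 CPM, 4.35-fold higher (4.2 to 4.51)) and Cldn6 (107 against 16.2 CPM, 6.62-fold higher (6.11 to 7.17)), a claudin of embryonic epithelium. Ocln, which encodes occludin, was at 246 CPM in the sorted library and 52.9 CPM in the input, 4.65-fold higher (4.45 to 4.87). The lower members included Cldn5, the claudin of endothelium, at 1.63 CPM in the sorted library and 186 CPM in the input, 114-fold lower (87.5 to 151). Cldn1, a claudin also used by hepatocytes, was at 1.6 CPM in the sorted library and 50.05 CPM in the input, 31.2-fold lower (23.9 to 41.5). Tjp1, the scaffold ZO-1 shared by epithelium and endothelium, was at 119 CPM in the sorted library and 272 CPM in the input, 2.29-fold lower (2.21 to 2.37).

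Adherens junction, desmosome and polarity genes moved in the same direction, 19 of 30 higher and 1 lower (median log2 ratio 1.91). Cdh1, which encodes E-cadherin, was at 2132 CPM in the sorted library and 373 CPM in the input, 5.71-fold higher (5.61 to 5.81). Dsg2, a desmosomal cadherin, was at 1684 CPM in the sorted library and 297 CPM in the input, 5.66-fold higher (5.56 to 5.77). Dsp, the desmoplakin that ties desmosomes to keratin filaments, was at 226 CPM in the sorted library and 26.5 CPM in the input, 8.53-fold higher (8.02 to 9.08). The single lower member was Cdh5, the cadherin of endothelium, at 1.78 CPM in the sorted library and 163 CPM in the input, 91.8-fold lower (71.4 to 120.1). Catenins, which serve cadherins in every cell type, were not called: Ctnnb1 had a ratio of 1.57 (1.53 to 1.61) and Ctnna1 a ratio of 1.03 (1.01 to 1.05). Grhl2, a transcription factor of epithelial identity, was 7.77-fold higher (6.84 to 8.85), at 49 against 6.3 CPM, while the splicing factor Esrp1 was 6.17-fold higher (5.28 to 7.23), at 27.2 against 4.41 CPM.

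Genes of the primary cilium and of polycystic disease contributed 11 higher genes out of 26 and 0 lower ones. Pkhd1, which encodes the fibrocystin of ductal cilia, was at 273 CPM in the sorted library and 32.8 CPM in the input, 8.32-fold higher (7.87 to 8.8). Dcdc2a, a ciliary doublecortin protein of cholangiocytes, was at 356 CPM in the sorted library and 41.6 CPM in the input, 8.55-fold higher (8.14 to 8.98). Bicc1, an RNA-binding protein whose loss causes cysts, was at 598 CPM in the sorted library and 83.3 CPM in the input, 7.19-fold higher (6.94 to 7.45). Glis3, a factor of ductal and islet development, was at 124 CPM in the sorted library and 18.4 CPM in the input, 6.74-fold higher (6.25 to 7.27). Bbs2, which acts at the base of the cilium, was 3.74-fold higher (3.33 to 4.2). Part of the ciliary machinery that many cells share was not called, since Ift88 had a ratio of 1.89 (1.7 to 2.09), Kif3a a ratio of 1.67 (1.56 to 1.79) and Pkd2 a ratio of 1.57 (1.52 to 1.63).

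Transport genes were mixed. Of 26 ductal fluid and ion transport genes 12 were higher and 6 lower (3 lower with library totals). Cftr, the chloride channel of ductal secretion, was at 36 CPM in the sorted library and 5.33 CPM in the input, 6.75-fold higher (5.87 to 7.79). Slc5a1, the sodium-glucose transporter of the duct's apical face, was at 471 CPM in the sorted library and 70.7 CPM in the input, 6.65-fold higher (6.4 to 6.92). Ano1, a calcium-activated chloride channel, was at 188 CPM in the sorted library and 47 CPM in the input, 4.0-fold higher (3.81 to 4.2). Slc10a2, the apical bile acid transporter by which ducts take bile acid back up, was at 11.9 CPM in the sorted library and 4.77 CPM in the input, 2.5-fold higher (2.11 to 2.97). The chain from hormone receptor to chloride channel (Sctr, Cftr) was higher, while the carrier Slc4a2 was not and the bicarbonate-handling enzyme Car2 was 2.12-fold higher (2.04 to 2.21). Gpbar1, the bile acid receptor of cilia, was also called higher, but from 3 counts in the input, at 0.554 against 0.0675 CPM, which is below the olfactory level of the sorted library.

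Mucins and mucosal defence genes numbered 15, of which 6 were higher and 4 lower. Muc1, a membrane mucin, was at 509.9 CPM in the sorted library and 107 CPM in the input, 4.78-fold higher (4.63 to 4.94). Pigr, which carries IgA into bile, was at 759 CPM in the sorted library and 255 CPM in the input, 2.98-fold higher (2.91 to 3.05). Lcn2, an iron-binding defence protein, was nearly level at 785 CPM in the sorted library and 978 CPM in the input, a ratio of 0.803 (0.791 to 0.816). The gel-forming mucin Muc5b had 0 counts in both libraries and Muc6 no more than 3.

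Basement membrane and integrin genes were mixed as well. Of 21 laminin and basement membrane genes 9 were higher and 6 lower, with a median log2 ratio of -0.10 whose sign turned under scaling to library totals and in the authors' own values. Higher were the epithelial laminin chain Lamb3 (22 against 5.6 CPM, 3.93-fold higher (3.4 to 4.56)) and the collagen IV chain Col4a5 (128 against 25.4 CPM, 5.04-fold higher (4.72 to 5.38)). Lower were the collagen IV chains Col4a1 (158 against 1149 CPM, 7.25-fold lower (7.05 to 7.46)) and Col4a2 (66.1 against 661 CPM, 10.01-fold lower (9.59 to 10.4)), which vessels and stellate cells make, and the linker Nid1 (19 against 377 CPM, 19.9-fold lower (18.4 to 21.5)). Among 19 integrins 5 were higher, with Itgb6 (53.7 against 10.01 CPM, 5.36-fold higher (4.83 to 5.96)) and Itgb8 (82.9 against 12.3 CPM, 6.73-fold higher (6.14 to 7.39)), the partners of alpha v that activate TGF-beta, and Itgb4 (65.3 against 12.6 CPM, 5.18-fold higher (4.72 to 5.69)), the partner of alpha 6 in hemidesmosomes. The 8 lower integrins included ones known from leukocytes, platelets, stellate cells and endothelium, such as Itga8 (1.63 against 235 CPM, 144-fold lower (111 to 191)). Of 11 annexins 5 were higher, such as Anxa13 of epithelia (130.2 against 18.4 CPM, 7.09-fold higher (6.58 to 7.65)), and Anxa1 was lower (4.49 against 120.3 CPM, 26.8-fold lower (22.8 to 31.6)).

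Transcription factors of hepatobiliary and epithelial cells numbered 35, of which 18 were higher and 8 lower. Onecut2 and Onecut1, which act with Sox9 in duct formation, were at 184 against 20.1 CPM and 84.8 against 10.8 CPM; 52.8% of Onecut1 exon sequence overlaps another gene model. Ehf, an ETS factor of epithelia, was at 317 CPM in the sorted library and 46.2 CPM in the input, 6.87-fold higher (6.55 to 7.21). Gata6, a GATA factor of endoderm, was at 170.3 CPM in the sorted library and 27.9 CPM in the input, 6.11-fold higher (5.75 to 6.5), whereas Gata4, which sinusoidal endothelium uses in adult liver, was at 2.8 CPM in the sorted library and 423 CPM in the input, 151-fold lower (124 to 186). Factors of hepatocyte identity lay between these: Hnf4a had 84.1 CPM in the sorted library and 100.4 CPM in the input, a ratio of 0.838 (0.799 to 0.878), Foxa3 a ratio of 1.02 (0.958 to 1.09) and Nr1h4 a ratio of 0.776 (0.714 to 0.842). Nr1i3, a xenobiotic receptor of hepatocytes, was 18.3-fold lower (13.9 to 24.7), although 74.9% of its exon sequence overlaps a neighbour. Factors of mesenchyme were lower, with Zeb2 at 4.81 CPM in the sorted library and 95.4 CPM in the input, 19.8-fold lower (17 to 23.3) and Twist1 at 3 counts in the sorted library. Ppara, a nuclear receptor of hepatocytes, was lower too, with a ratio of 0.287 (0.235 to 0.349). The ductal factors named were thus higher, and Hnf4a, Foxa3 and Nr1h4 were not called. Nr1i3, Ppara and the mesenchymal and endothelial factors named were lower.

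Sinusoidal endothelial genes were lower without exception among those matched, 17 of 17, with a median log2 ratio of -6.84 and a summed level of 237 CPM against 23418 CPM. Stab2, the hyaluronan scavenger receptor that defines sinusoidal endothelium, was at 17.1 CPM in the sorted library and 2812 CPM in the input, 164-fold lower (152 to 179). Kdr, the VEGF receptor 2, was at 14.6 CPM in the sorted library and 2229.9 CPM in the input, 153-fold lower (139.7 to 167). Clec4g, a lectin of sinusoidal endothelium, was at 21.5 CPM in the sorted library and 2464 CPM in the input, 115-fold lower (107 to 123). Stab2 was higher still in the library labelled CD45+ (3627 CPM). All 20 of 20 general vascular markers were lower too, by 5.7 to 214-fold, with Erg, an endothelial ETS factor, at 0.175 CPM in the sorted library and 37.4 CPM in the input, 214-fold lower (98 to 583). No defining endothelial marker was at 0 in the sorted library.

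Markers of mesenchymal cells and leukocytes were also mostly lower. Of 16 stellate cell markers 14 were lower, with a summed level of 62.9 against 979.9 CPM. Lrat, which stores retinol in stellate cells, was at 1.66 CPM in the sorted library and 37.4 CPM in the input, 22.5-fold lower (17.3 to 29.8), and Hand2 was at 0 in the sorted library, at least 7.97-fold lower against a floor of 3 counts. Of 16 fibroblast and mesothelial markers 14 were lower and 2 higher (summed 349.9 against 1037 CPM), the higher being Entpd2, an ecto-ATPase also used as a portal fibroblast marker, at 81.8 CPM in the sorted library and 18.5 CPM in the input, 4.42-fold higher (4.09 to 4.78), and Gpm6a, a membrane glycoprotein of mesothelium, at 217 CPM in the sorted library and 61.9 CPM in the input, 3.5-fold higher (3.35 to 3.66). Col1a1 was at 0.70 CPM in the sorted library and 51.8 CPM in the input, 73.9-fold lower (49.6 to 116). Gpm6a and Entpd2 therefore moved against the collagen and mesothelin genes of their list, with Msln at 1.55 CPM in the sorted library and 33.8 CPM in the input, 21.8-fold lower (16.6 to 29.3).

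Of 20 Kupffer cell and macrophage markers 18 were lower and 1, Spic, was higher (summed 344 against 2014 CPM, of which the iron exporter Slc40a1, found in many cell types, made 225 CPM in the sorted library). Clec4f, a lectin of Kupffer cells only, was at 1.81 CPM in the sorted library and 139 CPM in the input, 77.1-fold lower (60.03 to 101). C1qa, a complement subunit of macrophages, was at 0.671 CPM in the sorted library and 42.8 CPM in the input, 63.7-fold lower (42.4 to 101). Csf1r, the macrophage growth factor receptor, stood apart with 79.1 CPM in the sorted library and 99.9 CPM in the input, a ratio of 0.792 (0.755 to 0.831). Of 14 neutrophil markers 11 were lower (summed 830.2 against 2602 CPM, Lcn2 making most of the sorted level), led by S100a8 with 3 counts against 3568, 917-fold lower (314 to 4450.2). Ly6g was at 0 in the sorted library. Cxcr2 was called higher, at 29.3 CPM in the sorted library and 2.21 CPM in the input, 13.3-fold higher (10.8 to 16.5), and was higher again in the library labelled CD45+, at 44.2 CPM.

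Lymphocyte, dendritic, red cell and platelet genes were low in both libraries. Of 20 lymphocyte and dendritic markers 10 were lower and 3 higher (summed 18.9 against 55.6 CPM), and Cd3e, Trac, Gzma and Itgax were at 0 in the sorted library. The higher ones, Cd8a, Xcr1 and Ms4a1, stood at 1.95, 3.24 and 7.97 CPM in the sorted library and above that in the library labelled CD45+. Of 14 red cell and platelet markers 8 were lower (summed 9.92 against 294 CPM), with Hbb-bt, a beta globin near-identical to a second copy, at 3 counts against 1996. Of 9 lymphatic endothelial markers 4 were lower and 2, Prox1 and Pdpn, higher, and Prox1 is also a factor of liver epithelium (345 CPM in the sorted library and 62 CPM in the input, 5.56-fold higher (5.34 to 5.8)).

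Hepatocyte genes were lower in 27 of 30, but by very unequal factors, from 2.1 to 123-fold, and their summed level was 14361 against 64453 CPM. Hpx, the haem-binding hemopexin, was at 37.4 CPM in the sorted library and 4609.6 CPM in the input, 123-fold lower (117 to 130.2). Hp, the haptoglobin that binds free haemoglobin, was at 75.7 CPM in the sorted library and 4457 CPM in the input, 58.8-fold lower (56.6 to 61.2). Cyp2e1, the cytochrome that oxidises ethanol, was at 32.2 CPM in the sorted library and 797 CPM in the input, 24.8-fold lower (23.3 to 26.3). Alb, the albumin gene, was by contrast at 3241 CPM in the sorted library and 5267 CPM in the input, a ratio of 0.615 (0.611 to 0.62), which did not pass the call. Ahsg, the plasma protein fetuin-A, was at 2067 CPM in the sorted library and 3979 CPM in the input, a ratio of 0.519 (0.515 to 0.524). The list therefore held genes that did not pass the call beside genes at less than 1% of the input's level, and Trf, the transferrin gene (63.5% of its exon sequence overlaps another model), lay between at 6408 CPM in the sorted library and 18473 CPM in the input, 2.88-fold lower (2.87 to 2.9).

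The acute phase genes repeated this spread. Of 20, 17 were lower and 1 higher, with a median log2 ratio of -4.73. Saa1 and Saa2, near-identical serum amyloid genes between which reads may be split, were 158-fold and 171-fold lower, from 7.73 against 1225 CPM and 5.89 against 1006 CPM. Orm1, an acid glycoprotein, was at 9.13 CPM in the sorted library and 892 CPM in the input, 97.6-fold lower (87.4 to 109). Crp, a pentraxin that responds weakly to inflammation in mice, was near level at 289.8 CPM in the sorted library and 211 CPM in the input, a ratio of 1.37 (1.33 to 1.41). Fga and Fgb, the alpha and beta chains of fibrinogen, were 4.88-fold lower (4.81 to 4.96) and 13.7-fold lower (13.5 to 14). Complement components gave 12 lower genes and 1 higher out of 19, with C8a of the membrane attack complex at 0.671 CPM in the sorted library and 58.4 CPM in the input, 87.1-fold lower (57.9 to 138) and C3, the central component, at 2751 CPM in the sorted library and 3957 CPM in the input, a ratio of 0.695 (0.69 to 0.701).

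**Figure D3:**
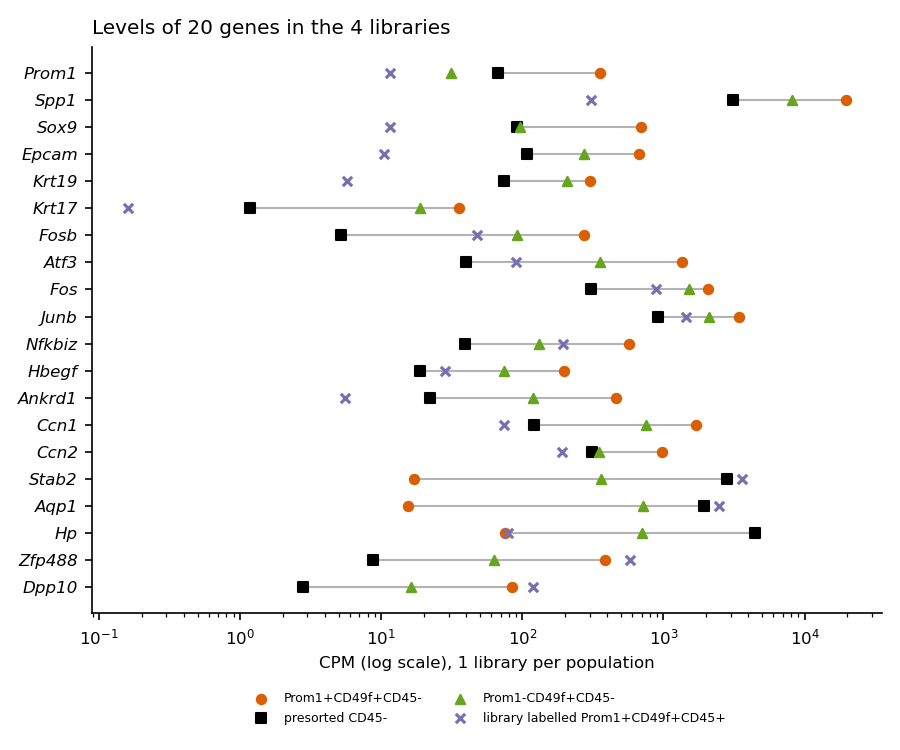
Level of 20 genes (CPM, x axis, log scale) in the 4 libraries, 1 per population; a grey line joins the Prom1+CD49f+CD45- library (circle) to its presorted CD45- input (square). Prom1, Sox9 and Ankrd1 are highest in the circle, Stab2 and Aqp1 lowest there, and Zfp488 and Dpp10 are higher in the library labelled CD45+ (cross) than in the sorted cells.

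Immediate early genes, which cells induce within minutes of a stimulus and also during tissue digestion, were mostly higher: 18 of 27 passed the call upwards and 2 downwards (median log2 ratio 1.88). Fosb, a partner of Jun in the AP-1 factor, was at 275 CPM in the sorted library and 5.15 CPM in the input, 53.3-fold higher (46.7 to 61). Atf3, a stress-induced factor of the ATF family on chromosome 1, was at 1344 CPM in the sorted library and 39.9 CPM in the input, 33.7-fold higher (32.1 to 35.3). Both ratios were above those of all 27 higher duct markers. Fos itself was at 2053 CPM in the sorted library and 304 CPM in the input, 6.75-fold higher (6.63 to 6.88). Junb was at 3424 CPM in the sorted library and 910.1 CPM in the input, 3.76-fold higher (3.72 to 3.81), and Jun at 3552 CPM in the sorted library and 1007 CPM in the input, 3.53-fold higher (3.49 to 3.56). Egr1, a zinc finger factor, was at 1693 CPM in the sorted library and 289 CPM in the input, 5.86-fold higher (5.75 to 5.98). For Fos, Jun, Junb and Egr1 the ratio was within the range of the duct markers, and for Fosb and Atf3 it was outside. Maff (30.6 against 2.77 CPM, 11.1-fold higher (9.17 to 13.4)) had a ratio above that of every duct marker, with an interval that overlapped theirs.

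The other libraries placed these genes differently from duct genes. Fosb was at 91.5 CPM in the Prom1-CD49f+CD45- library and 47.8 CPM in the library labelled CD45+, Atf3 at 353 CPM in the Prom1-CD49f+CD45- library and 90.1 CPM in the library labelled CD45+ and Fos at 1508 CPM in the Prom1-CD49f+CD45- library and 883 CPM in the library labelled CD45+. For all 18 higher immediate early genes the library labelled CD45+ stood below the sorted library, as it did for all 27 higher duct markers. Against the input, that library was at or above it for 16 of the 18 and for 0 of the 27. All 3 flow-sorted libraries held more Fosb, Atf3, Fos and Junb than the unsorted input. The sorted cells went through staining and flow cytometry, which the input did not, so sorting and cell type cannot be told apart for these genes. Klf2, a flow-induced factor of endothelium, was lower at 36.5 CPM in the sorted library and 411 CPM in the input, 11.2-fold lower (10.6 to 11.9), and Ier5 was 2.98-fold lower (2.74 to 3.26).

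Targets of YAP and TEAD, the factors of the Hippo pathway that respond to stretch and injury, gave 10 higher and 7 lower genes out of 21 (4 lower with library totals). Ankrd1, an ankyrin repeat protein used as a YAP reporter, was at 459.8 CPM in the sorted library and 22.1 CPM in the input, 20.8-fold higher (19.5 to 22.2). Ccn1, a secreted matrix protein, was at 1706 CPM in the sorted library and 120.3 CPM in the input, 14.2-fold higher (13.8 to 14.6). Ccn2, its relative known as connective tissue growth factor, was at 974 CPM in the sorted library and 309 CPM in the input, 3.15-fold higher (3.09 to 3.21). Ankrd1 was at 119 CPM in the Prom1-CD49f+CD45- library and 5.52 CPM in the library labelled CD45+, so it was high in both CD49f+CD45- fractions and low in the others. Lower members included Axl, a receptor kinase, at 0.729 CPM in the sorted library and 54.4 CPM in the input, 74.6-fold lower (50.4 to 116), and Cavin2, a caveolar protein, at 120.2 CPM in the sorted library and 448 CPM in the input, 3.72-fold lower (3.6 to 3.85). Among 18 Hippo pathway components 5 were higher and 4 lower (1 lower with library totals), with Tead1 at 40.7 CPM in the sorted library and 6.73 CPM in the input, 6.04-fold higher (5.33 to 6.87), Yap1 at 44.6 CPM in the sorted library and 52.7 CPM in the input, a ratio of 0.846 (0.793 to 0.903) and Wwtr1, which encodes TAZ, at 96.2 CPM in the sorted library and 213 CPM in the input, 2.21-fold lower (2.12 to 2.3).

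Promoter sequences of these targets were read, since TEAD factors are known to bind GGAATG. Of the 10 higher YAP and TEAD targets, 8 had a promoter in RefSeq (build GRCm38.p6, the same assembly as mm10), and 4 of the 8 held GGAATG on either strand within the 250 bases before the start. Of the compared targets not called higher, 3 of 10 did, and of 13061 compared genes with a promoter 11.2% did. No match overlapped another. The 4 are shown 5′ to 3′ on the gene's strand, with each GGAATG, or CATTCC where it lies on the other strand, in capitals.
Ankrd1 (chr19:36119845-36120094, minus strand): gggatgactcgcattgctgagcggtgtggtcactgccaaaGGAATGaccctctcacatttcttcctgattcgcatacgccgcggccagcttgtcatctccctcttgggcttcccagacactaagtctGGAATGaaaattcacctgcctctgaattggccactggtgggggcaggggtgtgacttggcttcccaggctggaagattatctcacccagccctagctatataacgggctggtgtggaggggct
Ccn1 (chr3:145649986-145650235, minus strand): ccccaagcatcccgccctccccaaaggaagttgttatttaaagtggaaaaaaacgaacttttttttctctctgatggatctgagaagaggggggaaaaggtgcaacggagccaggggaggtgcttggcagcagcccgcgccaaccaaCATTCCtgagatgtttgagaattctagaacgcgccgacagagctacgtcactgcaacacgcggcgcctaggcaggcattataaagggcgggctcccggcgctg
Ajuba (chr14:54577662-54577911, minus strand): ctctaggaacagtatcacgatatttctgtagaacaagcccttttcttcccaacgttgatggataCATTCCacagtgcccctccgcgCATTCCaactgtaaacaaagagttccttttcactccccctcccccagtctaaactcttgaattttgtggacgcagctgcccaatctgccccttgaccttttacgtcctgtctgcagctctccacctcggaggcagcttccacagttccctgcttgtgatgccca
Ptpn14 (chr1:189728018-189728267, plus strand): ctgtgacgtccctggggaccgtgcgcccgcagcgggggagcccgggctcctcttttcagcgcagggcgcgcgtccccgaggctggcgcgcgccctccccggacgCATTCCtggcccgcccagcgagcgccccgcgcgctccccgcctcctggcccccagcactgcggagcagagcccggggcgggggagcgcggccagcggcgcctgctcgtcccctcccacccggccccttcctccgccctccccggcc
Ankrd1, with the largest ratio of the list, held 2 matches, beginning 210 and 123 bases before its start, and Ccn1 held 1, beginning 103 bases before. Ajuba, a LIM protein of the pathway, held 2 and was at 128 CPM in the sorted library and 45.4 CPM in the input, 2.82-fold higher (2.67 to 2.97). Ptpn14, a phosphatase that binds YAP, held 1 and was at 73.8 CPM in the sorted library and 28.9 CPM in the input, 2.56-fold higher (2.39 to 2.74). Ajuba with 2 matches had a lower ratio than Ccn1 with 1, and a part of the matches in the ratios was not tested.

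The same was done for the immediate early genes with TGACGTCA, the cyclic AMP response element, with TGACTCA, the AP-1 element, and with the CArG box that serum response factor binds, on either strand. Of the 18 higher genes 14 had a promoter, of which 2 held TGACGTCA (2.43% of all 13061 promoters did), 1 held a CArG box (1.16% of all) and 0 held TGACTCA (3.52% of all). The 3 that held a match follow, with the match in capitals.
Dusp1 (chr17:26508473-26508722, minus strand): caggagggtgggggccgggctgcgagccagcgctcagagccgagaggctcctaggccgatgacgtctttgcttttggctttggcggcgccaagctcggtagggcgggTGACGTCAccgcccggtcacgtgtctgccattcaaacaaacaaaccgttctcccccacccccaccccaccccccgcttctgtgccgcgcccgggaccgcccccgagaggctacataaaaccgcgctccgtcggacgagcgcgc
Btg2 (chr1:134079156-134079405, minus strand): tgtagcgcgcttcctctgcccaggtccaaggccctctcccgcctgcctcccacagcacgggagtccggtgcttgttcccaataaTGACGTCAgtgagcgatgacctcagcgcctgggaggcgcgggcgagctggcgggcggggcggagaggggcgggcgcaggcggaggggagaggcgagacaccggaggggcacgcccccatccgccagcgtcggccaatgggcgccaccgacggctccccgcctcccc
Zfp36 (chr7:28379229-28379478, minus strand): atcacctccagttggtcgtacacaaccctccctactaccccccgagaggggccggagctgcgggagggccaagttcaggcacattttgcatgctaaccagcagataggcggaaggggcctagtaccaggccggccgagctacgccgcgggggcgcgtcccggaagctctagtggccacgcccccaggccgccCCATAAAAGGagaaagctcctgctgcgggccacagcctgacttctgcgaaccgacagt
Dusp1, a MAP kinase phosphatase, and Btg2, an antiproliferative gene, held TGACGTCA, and Zfp36, an mRNA-decay factor, held the CArG box. Their ratios, 2.4, 4.7 and 2.59, were below those of Fosb and Atf3, neither of which is among the genes shown with a match. Whether the matches bear on the ratios was not tested.

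The NF-kappaB pathway as a list did not move with these genes. Of 26 members 3 were higher and 6 lower. Nfkbiz, an inducible nuclear IkB protein, was at 571 CPM in the sorted library and 39.5 CPM in the input, 14.5-fold higher (13.8 to 15.2). It was at 131 CPM in the Prom1-CD49f+CD45- library and 193 CPM in the library labelled CD45+, both above the input. Sorting and cell type therefore cannot be told apart for Nfkbiz either. Tnfrsf12a, the Fn14 receptor through which TWEAK drives ductular reactions, was at 202 CPM in the sorted library and 37.2 CPM in the input, 5.44-fold higher (5.15 to 5.74). The usual feedback genes were not called, with Nfkbia at 346 CPM in the sorted library and 306 CPM in the input, a ratio of 1.13 (1.1 to 1.16) and Tnfaip3 at 29.4 CPM in the sorted library and 58.2 CPM in the input, a ratio of 0.506 (0.47 to 0.545). Tnfrsf1a, the main TNF receptor, was lower at 94 CPM in the sorted library and 406 CPM in the input, 4.32-fold lower (4.16 to 4.49).

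**Figure D4:**
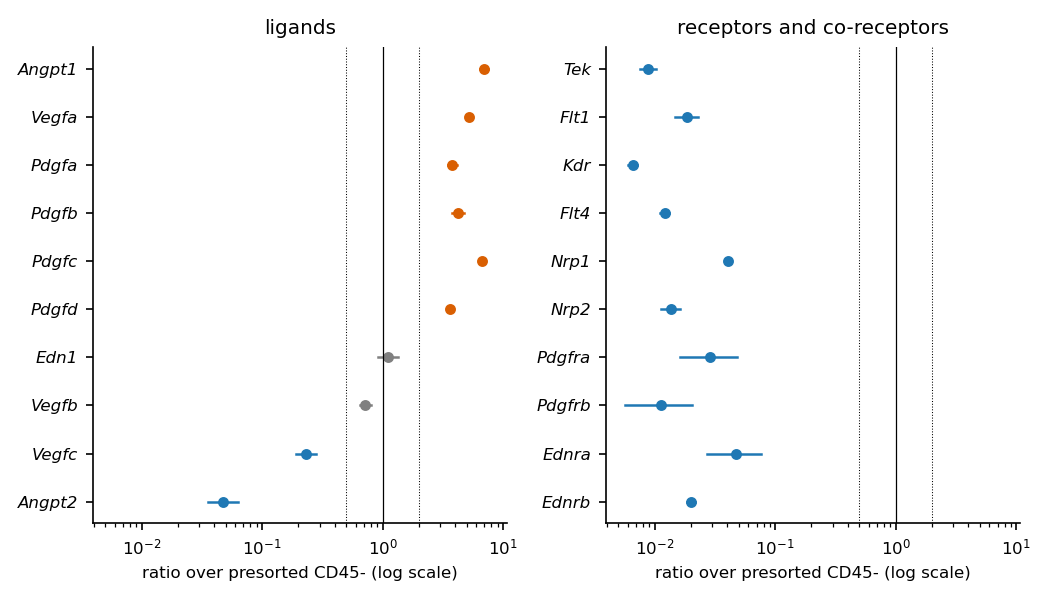
Ratio of the Prom1+CD49f+CD45- library over the presorted CD45- library (x axis, log scale) for 10 vascular and mesenchymal growth factor ligands (left) and 10 receptors or co-receptors (right); points are ratios, lines 95% counting intervals, orange called higher, blue called lower, grey not called, dotted lines 2-fold. The 6 orange ligands are higher, and all 10 receptors are lower.

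Ligands and receptors of vessel and mesenchyme growth factors moved apart. Of 21 genes compared, 6 were higher, all of them ligands, and 12 were lower. Vegfa, the main growth factor of endothelium, was at 272 CPM in the sorted library and 52.1 CPM in the input, 5.22-fold higher (4.98 to 5.46). Angpt1, the ligand that stabilises vessels through Tek, was at 109 CPM in the sorted library and 15.6 CPM in the input, 6.95-fold higher (6.41 to 7.55). Pdgfc and Pdgfd, which signal to stellate cells and fibroblasts, were 6.7-fold higher (6.3 to 7.13) and 3.62-fold higher (3.49 to 3.75), at 184 against 27.4 CPM and 325 against 89.9 CPM. Tek was at 5.63 CPM in the sorted library and 638 CPM in the input, 113-fold lower (98.3 to 131) and Pdgfrb, the receptor of stellate cells, at 0.321 CPM in the sorted library and 28.3 CPM in the input, 88.3-fold lower (49.2 to 177). Not every ligand was higher: Edn1 had a ratio of 1.11 (0.917 to 1.34), Angpt2 was 21-fold lower (15.9 to 28.3) and Vegfc was 4.33-fold lower (3.58 to 5.28). The receptors are also markers of endothelium and stellate cells, whose lists were lower as a whole.

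Receptors of epithelial growth factors were among the higher genes. Of 25 EGF receptor, HGF and FGF pathway genes 13 were higher and 4 lower. Fgfr3 and Fgfr2, receptors of fibroblast growth factors, were at 1264 against 241 CPM and 337 against 69 CPM, 5.25-fold higher (5.14 to 5.36) and 4.88-fold higher (4.69 to 5.08). Hbegf, a membrane-tethered ligand of the EGF receptor, was at 196 CPM in the sorted library and 18.8 CPM in the input, 10.4-fold higher (9.72 to 11.2). Erbb4, a receptor of neuregulins and of Hbegf, was at 41.5 CPM in the sorted library and 3.42 CPM in the input, 12.1-fold higher (10.2 to 14.4). Met, the receptor of HGF, was at 117 CPM in the sorted library and 45.5 CPM in the input, 2.57-fold higher (2.43 to 2.71), and Hgf, made by stellate and endothelial cells, was at 1.11 CPM in the sorted library and 185 CPM in the input, 167-fold lower (121 to 236). Egfr itself had 88 CPM in the sorted library and 66.4 CPM in the input, a ratio of 1.33 (1.26 to 1.39). Fgf10 was called higher on 86 counts against 3 and was at 2.82 CPM in the library labelled CD45+, where the sorted library had 2.51 CPM.

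Of 21 Notch pathway genes, 4 were higher and 8 lower. Notch2, the receptor needed for duct formation, was at 25.4 CPM in the sorted library and 5.2 CPM in the input, 4.89-fold higher (4.23 to 5.68). Jag1, the ligand mutated in Alagille syndrome, was at 506 CPM in the sorted library and 190.0 CPM in the input, 2.66-fold higher (2.6 to 2.74), and Hes1, a target of the pathway, at 949 CPM in the sorted library and 218 CPM in the input, 4.36-fold higher (4.26 to 4.46). Endothelial members were lower, with Dll4 at 2.31 CPM in the sorted library and 211 CPM in the input, 91.7-fold lower (73.5 to 116) and Notch4 at 1.84 CPM in the sorted library and 142 CPM in the input, 77.5-fold lower (60.5 to 101). The 4 higher genes were thus a receptor, a target and 2 ligands, the other ligand being Jag2 at 15.3 CPM in the sorted library and 5.65 CPM in the input, 2.71-fold higher (2.33 to 3.16).

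Wnt genes split 12 higher and 10 lower of 33. Wnt7b, a ligand of ductal reactions, was at 43 CPM in the sorted library and 8.06 CPM in the input, 5.33-fold higher (4.75 to 6.0). Wnt4 was at 87.5 CPM in the sorted library and 12.5 CPM in the input, 7.02-fold higher (6.41 to 7.7), and Wnt7a at 5.19 CPM in the sorted library and 0.428 CPM in the input, 12.1-fold higher (7.55 to 20.7). Wnt2, the ligand that liver endothelium supplies to hepatocytes, was lower at 1.63 CPM in the sorted library and 109 CPM in the input, 66.9-fold lower (51.4 to 88.6). Rnf43 and Znrf3, ligases that remove Wnt receptors, were 2.87-fold higher (2.54 to 3.25) and 4.97-fold higher (4.21 to 5.89). The direct target Axin2 was 5.4-fold lower (2.11 to 17.7) at low levels, 0.146 against 0.788 CPM, a call lost with library totals. Notum was 7.98-fold lower (6.0 to 10.8). Wnt4, Wnt7a, Wnt7b, Rnf43 and Znrf3 were thus higher, while Axin2 and Notum were lower. The stem cell receptor Lgr5 had a ratio of 2.11 (1.47 to 3.05) at 2.42 against 1.15 CPM.

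TGF-beta, activin and BMP genes split 8 higher and 10 lower of 26. Tgfb2 was at 57.5 CPM in the sorted library and 7.61 CPM in the input, 7.55-fold higher (6.73 to 8.5), and Tgfb3 at 64.5 CPM in the sorted library and 13.6 CPM in the input, 4.74-fold higher (4.33 to 5.2). Tgfb1, the most studied isoform, was at 3.27 CPM in the sorted library and 90.8 CPM in the input, 27.8-fold lower (23 to 33.8), so the ligand isoforms went in opposite directions. Id2, a BMP-responsive inhibitor of differentiation factors, was at 1661 CPM in the sorted library and 345 CPM in the input, 4.81-fold higher (4.73 to 4.9). Bmp2, the endothelial ligand that induces hepcidin, was at 14.3 CPM in the sorted library and 1503 CPM in the input, 105-fold lower (96.4 to 115), and Tgfbr2 at 48.3 CPM in the sorted library and 429 CPM in the input, 8.88-fold lower (8.44 to 9.34). Among 9 Hedgehog genes 1, Smo, was higher (65.2 against 29.5 CPM, 2.21-fold higher (2.06 to 2.36)) and 3 were lower, and Gli1 was at 0 in the sorted library.

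Insulin and IL-6 pathway genes were mostly not higher. Of 19 insulin and IGF genes 3 were higher, with Irs2 at 62.3 CPM in the sorted library and 10.1 CPM in the input, 6.18-fold higher (5.58 to 6.85), and 7 lower, chiefly the binding proteins such as Igfbp2 (0.554 against 51.9 CPM, 93.6-fold lower (59.8 to 156)). Of 17 IL-6 and STAT3 genes 1 was higher and 5 were lower. Il6st, the shared receptor gp130, was at 168 CPM in the sorted library and 2914 CPM in the input, 17.3-fold lower (16.9 to 17.8). Socs3, the feedback target, had 427 CPM in the sorted library and 479 CPM in the input, a ratio of 0.893 (0.874 to 0.912).

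Of 28 chemokine and cytokine ligands, 7 were higher and 14 lower. Cxcl1 and Cxcl5, neutrophil attractants, were at 83.8 against 25.1 CPM and 19.99 against 4.52 CPM, 3.34-fold higher (3.12 to 3.59) and 4.42-fold higher (3.77 to 5.2). Cx3cl1, fractalkine, was at 29.5 CPM in the sorted library and 8.44 CPM in the input, 3.5-fold higher (3.1 to 3.95). Lif, a cytokine of the IL-6 family, was at 12.7 CPM in the sorted library and 1.55 CPM in the input, 8.16-fold higher (6.31 to 10.7). Tnf was called higher at a low level, 3.82 against 1.22 CPM. Il1a and Cxcl9 were lower, with 2.68 against 193 CPM and 2.51 against 68.3 CPM, and the library labelled CD45+ held the most of both. Of the 7 higher ligands Cxcl1, Cxcl5 and Il23a stood above the sorted level in the Prom1-CD49f+CD45- library, at 96.3, 27.2 and 3.11 CPM.

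Several class II antigen presentation genes were higher. Of 16 class I and II genes 5 were higher (8 with library totals) and 0 lower. Ciita, the class II transactivator, was at 11.8 CPM in the sorted library and 2.79 CPM in the input, 4.22-fold higher (3.45 to 5.21). Cd74, the invariant chain, was at 804 CPM in the sorted library and 315 CPM in the input, 2.55-fold higher (2.5 to 2.61), and H2-Ab1, a class II chain, at 240.5 CPM in the sorted library and 92 CPM in the input, 2.61-fold higher (2.52 to 2.71). Another class II chain, H2-Aa, had a ratio of 1.85 (1.74 to 1.97) and was not called. H2-K1, a class I chain with close relatives, had 2455 CPM in the sorted library and 1889.8 CPM in the input, a ratio of 1.3 (1.29 to 1.31) and B2m 1236 CPM in the sorted library and 1948 CPM in the input, a ratio of 0.634 (0.627 to 0.642). Of 23 interferon-induced genes 0 passed the call as higher (2 with library totals) and 6 as lower, with Ifit3 at 14.2 CPM in the sorted library and 84.8 CPM in the input, 5.97-fold lower (5.43 to 6.57).

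Genes used as markers of liver progenitors and tumour-initiating cells gave 9 higher and 3 lower genes out of 19 compared (1 lower with library totals). The higher ones included Prom1, Sox9, Epcam, Cd24a, Cldn6, St14, Tnfrsf12a and Nanog. Prom1 encodes a protein the cells were sorted on, and Sox9, Epcam and Cd24a are also in the duct list. St14, the membrane protease matriptase, was at 300.3 CPM in the sorted library and 51.9 CPM in the input, 5.78-fold higher (5.53 to 6.05). Nanog, a pluripotency factor with related pseudogenes, was at 2.22 against 0.383 CPM and stood at 3.22 CPM in the library labelled CD45+. Some genes of fetal or stem cells went otherwise. Afp was 3.02-fold lower (2.08 to 4.49), a call lost with library totals. Gpc3 had a ratio of 0.662 (0.586 to 0.747) and Sox2 was at 0 in both libraries. Cd44 had 57.6 CPM in the sorted library and 45.8 CPM in the input, a ratio of 1.26 (1.18 to 1.34), and Kit was 106-fold lower (89.9 to 126). The higher members were thus mainly epithelial genes, with Cldn6 of embryonic epithelium among them and Afp, Gpc3 and Sox2 not.

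Of 26 proliferation genes, 18 passed the call as lower and 2 as higher (median log2 ratio -1.62), against 13 and 3 with library totals. Top2a, a topoisomerase of dividing cells, was at 20.02 CPM in the sorted library and 73.3 CPM in the input, 3.66-fold lower (3.37 to 3.98). Cdk1, the mitotic kinase, was at 6.3 CPM in the sorted library and 31.4 CPM in the input, 4.98-fold lower (4.32 to 5.78). Mki67 was at 22.2 CPM in the sorted library and 46.1 CPM in the input, a ratio of 0.482 (0.443 to 0.525) and did not pass the call. Ccnd1, the cyclin of G1 entry, was higher at 147 CPM in the sorted library and 64.1 CPM in the input, 2.29-fold higher (2.19 to 2.4), as was Tyms at 66.3 CPM in the sorted library and 27.9 CPM in the input, 2.38-fold higher (2.22 to 2.55). Among 17 p53 targets and cell cycle inhibitors 4 were higher, led by Gadd45b (144 against 14.3 CPM, 10.1-fold higher (9.26 to 10.9)), and Cdkn1a, which encodes p21, had 25.6 CPM in the sorted library and 47.2 CPM in the input, a ratio of 0.542 (0.50 to 0.587).

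Alcohol metabolism and stress defence genes were mostly lower or not called. Of 15 alcohol and aldehyde oxidation genes 0 were higher and 10 lower (1 and 6 with library totals), with Adh1 at 40.7 CPM in the sorted library and 1119 CPM in the input, 27.5-fold lower (26.1 to 29) and Aldh2 at 197 CPM in the sorted library and 620.1 CPM in the input, 3.15-fold lower (3.07 to 3.24). None of 16 NRF2 targets and metallothioneins was higher and 10 were lower, with Nqo1 at 5.86 CPM in the sorted library and 74.8 CPM in the input, 12.8-fold lower (11.1 to 14.8) and Gstm1 at 873 CPM in the sorted library and 6970.1 CPM in the input, 7.99-fold lower (7.89 to 8.08). Of 17 unfolded protein and ATF4 response genes 9 were lower, such as Asns (2.66 against 29.5 CPM, 11.1-fold lower (8.97 to 13.9)), and 1 higher. Among 15 heat shock genes only Cryab passed the call, at 181 CPM in the sorted library and 35.2 CPM in the input, 5.15-fold higher (4.87 to 5.45).

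Most lipid genes did not pass the call. The median log2 ratio was -0.12 for fatty acid and triglyceride synthesis genes and -0.08 for cholesterol genes. It was -0.91 for fatty acid oxidation genes and -0.79 for lipid droplet genes. Of 23 fatty acid and triglyceride synthesis genes 1 was higher and 5 lower, with Fasn at 55.7 CPM in the sorted library and 60.4 CPM in the input, a ratio of 0.922 (0.869 to 0.978) and Scd1, a desaturase of hepatocytes, at 20.5 CPM in the sorted library and 742 CPM in the input, 36.2-fold lower (33.6 to 39.1). Of 22 cholesterol genes 1 was higher (5 with library totals), Sqle, the squalene epoxidase, at 76.9 CPM in the sorted library and 17.2 CPM in the input, 4.46-fold higher (4.12 to 4.84), and 3 were lower. Fatty acid oxidation genes were lower in 5 of 17, and lipid droplet genes in 5 of 15, with Plin2 at 186 CPM in the sorted library and 383 CPM in the input, a ratio of 0.486 (0.472 to 0.50). Of 20 glycolysis genes 10 were lower (5 with library totals) and 2 higher, both of these being glucose carriers: Slc2a2, the carrier of hepatocytes, at 362 CPM in the sorted library and 126 CPM in the input, 2.87-fold higher (2.78 to 2.97), and Slc2a1 at 53.6 CPM in the sorted library and 22.6 CPM in the input, 2.37-fold higher (2.19 to 2.56).

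Mitochondrial and ribosomal genes were on the lower side. Of 13 mitochondrially encoded genes 10 were lower (median log2 ratio -1.15), but with library totals only 1 was (median -0.73), with mt-Co1 at 4432 CPM in the sorted library and 9804 CPM in the input, 2.21-fold lower (2.2 to 2.23), and they took 2.71% of counts against 4.03%. Of 30 ribosomal protein genes 1 was lower, Rps6, and the median log2 ratio was -0.63.

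Genes with the largest ratios were of another kind. The ranking leaves out predicted gene models such as Gm10800, whose bounds were in part higher, and receptor, ribosomal and histone families. By the bound of the interval nearest 1, the 20 highest of the remaining genes included Fam71a, Fosb, Atf3, Krt17 and C2cd4b, but also Zfp488, Dpp10, Opcml, Mcmdc2 and Ces2b. Zfp488, a zinc finger gene of oligodendrocytes, was at 384 CPM in the sorted library and 8.73 CPM in the input, 43.9-fold higher (39.7 to 48.7), and 583 CPM in the library labelled CD45+. Dpp10, a neuronal channel subunit, was at 83.9 CPM in the sorted library and 2.79 CPM in the input, 30.1-fold higher (25.1 to 36.3), and 119 CPM there. For 11 of the 20 that library was at or above the sorted one. Fam71a had 805 counts against 3, 348-fold higher (119 to 1691). The 20 farthest in the lower direction, ranked likewise, were markers of endothelium (Stab2, Kdr, Plxnc1, Eng, Stab1), neutrophils (S100a8, S100a9, Ngp, Camp), red cells, stellate cells (Hgf) and the acute phase (Saa1, Saa2), with Emilin1, Tbx2, Tmem132e, Tpbgl, Gata4 and the mast cell and basophil protease Prss34 (0.233 against 57.5 CPM, 246-fold lower (125 to 571)).

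The share of genes called differed by level and gene class. Of genes whose higher level lay between 1 and 10 CPM 41.5% were higher and 17.6% lower, whereas above 1000 CPM 21.2% were higher and 56.8% lower. Of 15711 protein-coding genes 18.2% were higher and 19.8% lower, and of 1809 long non-coding genes 45.6% and 7.08%. Of all 4264 higher genes 43.8% were at or above the sorted level in the library labelled CD45+; for protein-coding genes of at least 10 CPM it was 7.86% of 1298, and for the 27 higher duct markers 0. Requiring a gene to exceed the olfactory level in the library where it is higher left 3975 higher genes (21%). The part of low-level signal in these counts was not tested.

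**Figure D5:**
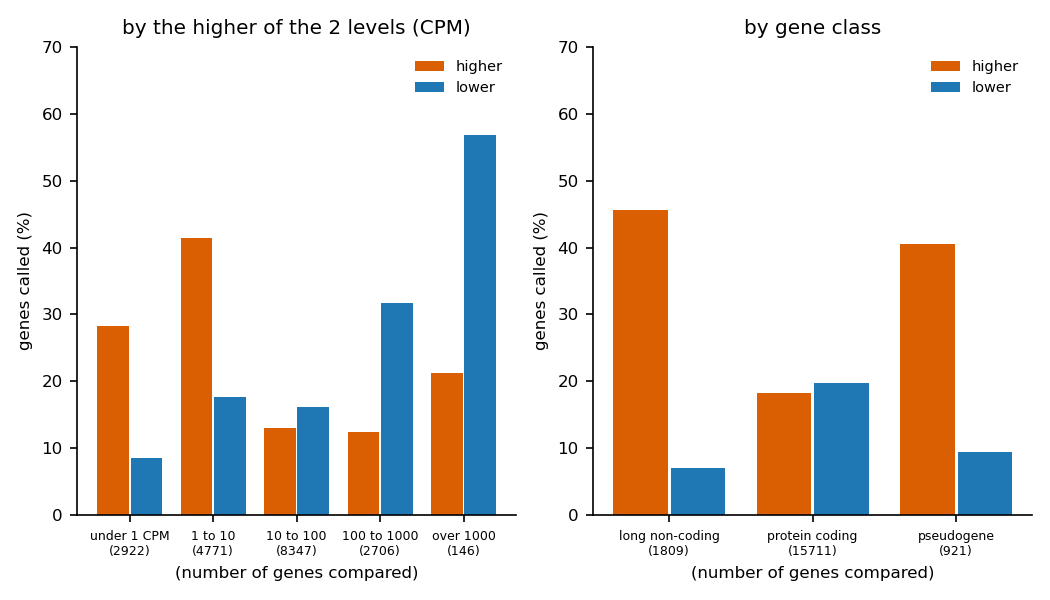
Share of compared genes called higher (orange) and lower (blue) in the Prom1+CD49f+CD45- library (y axis, percent), by the higher of a gene's levels in both libraries (left) and by gene class (right), with the number of genes in parentheses. Higher calls are most frequent between 1 and 10 CPM (41.5%) and among long non-coding genes (45.6%), lower calls above 1000 CPM (56.8%).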

How the data were processed

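Poly(A) RNA of 4 sorted or presorted liver cell populations was sequenced after a stranded library preparation, per the labels' protocols. A title in the labels names another library type, so the type is not certain. Alignment to mm10 with TopHat2 and quantification in Partek 3 are named in the submitters' processing notes. For the authors' annotation and counting strand, the sources used here give nothing, which leaves overlapping or antisense genes and near-identical families uncertain. Values in the authors' deposited table are estimated counts, and between 50.5% and 60.5% of a library's values, those at 0 included, had no decimal part. The input's column carries the name CD45 alone and was matched to it because the series' text gives every other population a number. A second table of the authors holds CPM with 1 added, and its divisor was larger than the gene total, which made up 67.1% to 88.4% of it. Gene totals were 30239681 for the sorted cells, 52294143 for the input, 14670414 for the Prom1-CD49f+CD45- cells and 23070164 for those labelled CD45+. The intervals cover counting error only, since each population had 1 library. PCR reads carried no molecular identifiers, so copies of the same molecule count separately and the intervals may be too narrow even for counting error.

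After rounding, these counts were scaled by TMM over the 4 libraries (edgeR 4.0.16, R 4.3.3), and all CPM values printed are on this scale. The 95% interval of each ratio was the exact conditional binomial (Clopper-Pearson) one (scipy 1.17.1). Compared genes had 10 or more counts in either library and lay above the 95th percentile of olfactory receptor genes in at least 1 of them. A gene was called when its whole interval lay beyond 2-fold, and a library at 0 was set to a floor of 3 counts. With 1 library per population no p-value was computed. Symbols and exon overlaps came from GENCODE vM21, which held 40254 of 41128 identifiers, and the remaining 874 took at most 0.365% of counts in a library. Promoters came from RefSeq.

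Genes named were those of the sort, given markers, the 20 called genes with the bound farthest from 1 in each direction among those of 100 or more counts (predicted models, chemosensory and immune receptor genes, ribosomal, histone and mitochondrially encoded genes left out), the 10 with most counts per library, and, of each of 53 gene lists (1019 genes), the 8 of highest level, the 4 farthest from 1 in each direction and up to 4 called against the list's majority. Members named beyond this were chosen after their values were seen. Members and lists were chosen with earlier results of these data known. The ratio and call steps were tested on simulated data with counting error alone, as the interval assumes. That checks the calculation and not the calls in these libraries. Alternatives were library totals, DESeq2 1.42.0 size factors, TMM over the compared libraries, the authors' values, other count, fold and background limits, 10-fold fewer counts, and removal of the length trend.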

Additional observations from a re-analysis of the deposited data

Results flagged for a closer look

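Olfactory receptor genes, which served to set the background level and belong to no comparison, gave more signal in the sorted library than in its input. At least 1 count was present for 67.3% of the 1160 genes (781) in the Prom1+CD49f+CD45- library, for 9.66% (112) in the deeper presorted input, for 24.1% (279) in the Prom1-CD49f+CD45- library and for 67.8% (787) in the library labelled CD45+. Their summed level was 283, 11.8, 76.4 and 397 CPM in the same order. Of the 218 with 10 or more counts in either compared library, 212 had an interval wholly above 2-fold, and 66 exceeded the background level, of which 62 were called higher and 1 lower. Their part in the higher calls of other low genes was not tested.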

How the results depend on the processing

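Higher and lower genes numbered 4264 and 3378 as reported. Requiring the interval to lie beyond 4-fold left 2333 and 1960, and a 10-fold reduction of all counts left 1665 and 2279. Scaling to library totals gave 5388 and 2625 (67.2% of calls higher, against 55.8%), and the authors' values, by ratio alone, gave 6156 and 3674 (62.6%). The other scalings, DESeq2 size factors and TMM over the compared libraries, gave 4260 to 4264 higher and 3378 to 3385 lower. Other count minimums gave 2963 to 4264 higher and 3105 to 3378 lower, keeping all genes at the olfactory level gave 5799 higher, the 99th percentile gave 3592, and both left 3378 lower. The ratio alone gave 5481 and 4209, and removing the length trend 4008 and 3555. A limit added after seeing the data, that a gene exceed the olfactory level in the library where it is higher, gave 3975 and 3378. None of these background limits could change the number of lower genes, since a gene called lower had 10 or more counts in the input. That lies above the input's olfactory level, 0.0225 CPM, or 0.0675 CPM at the 99th percentile. Of 620 named genes 0 changed direction as a call under any of 6 settings, and the call was lost for 40 and gained for 19 with library totals, and lost for 62 with 10-fold fewer counts, 21 with the authors' values and 15 without the length trend. List medians near 0 (neural, laminin, Hippo, TGF-beta, insulin, heat shock, fatty acid and cholesterol synthesis) changed sign with library totals and with the authors' values, as did mucins with library totals. No paired analysis was possible because each population had 1 library, and for the same reason no replicate could be left out.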
